A study of Mus musculus with 42 samples.

Results

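Serine/arginine-rich (SR) proteins and heterogeneous nuclear ribonucleoproteins (hnRNPs) are nuclear RNA-binding proteins that guide splicing. This account covers the mRNAs that encode them, measured in mouse embryonic stem cells as total RNA and as RNA recovered with the silencing protein Tnrc6a. The genes were taken by symbol from both count tables, namely those that begin with Srsf and a digit or with Hnrnp, leaving out pseudogene symbols that contain -ps. This gave 31 genes, 11 Srsf and 20 Hnrnp, out of 18825 rows in experiment 1 and 19866 rows in experiment 2. All 31 passed the filter on low counts in both experiments, with 18772 and 19778 rows tested.

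SR proteins bind exons through RNA recognition motifs and recruit spliceosome parts through an arginine- and serine-rich domain, while hnRNPs often bind introns and can block or redirect splice sites. Many SR and hnRNP genes control their own output by splicing in poison exons, which send the transcript to nonsense-mediated decay. Tnrc6a belongs to the GW182 family of silencing factors, which microRNA-loaded Argonautes bring to mRNAs for repression. Ago2 is one of these Argonautes, and Trim71 is an RNA-binding repressor of stem cells.

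The study used RNA immunoprecipitation followed by sequencing (RIP-seq): lysates were incubated with anti-HA beads, and RNA was sequenced from the beads (IP) and from the lysate (input). The 42 libraries form 14 groups of 3. All groups are 129S6/SvEvTac embryonic stem cells with the yGlob GFP_5xT71BS reporter, and the growth protocol gives them a stable FLAG-Cas9::T2A::Blasticidin insert. Untagged cells carry nothing further, and tagged cells express HA-AVI-Tnrc6a. Knockout cells are tagged and Trim71-/- (Trim71KO) or tagged and Ago2-/- (Ago2KO). Experiment 1 holds input and IP of untagged, tagged and Trim71KO cells in 18 libraries, and experiment 2 adds Ago2KO in 24 libraries. Triplicate dishes were grown, and how many clones each line represents is not given in the sources used here.

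Library totals ran from 12587257 to 23657840 counts in experiment 1 and from 16296447 to 21026552 in experiment 2. Ago2 RNA was lower in Ago2KO input (-1.12, SE 0.10, edgeR adjusted p 2.52e-08), as its label implies. The RNA of Trim71 was higher, not lower, in input libraries labelled Trim71KO (0.23, SE 0.086, edgeR adjusted p 0.0437 in experiment 1 and 0.42, SE 0.083, edgeR adjusted p 0.000411 in experiment 2), so the RNA level does not check that label and directions below refer to libraries so labelled. Tnrc6a mRNA had a tag-specific log2 change of 8.34 and 7.90. All 8 stem cell markers examined, among them Pou5f1 and Nanog, had input group means of 439 to 1785 in counts-per-million (CPM), here scaled to the TMM-adjusted library size. In experiment 1, tagged input replicate 2 stood apart from its group for Ago2 and Tnrc6a, and calls lost without it are named below.

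The 31 mRNAs were abundant as a class. Together they made up 1.35% to 1.75% of all counts in input libraries. In IP libraries of experiment 1 their share was 1.21% to 1.30% in untagged cells, 0.804% to 0.886% in tagged cells and 0.689% to 0.869% in Trim71KO cells. In IP libraries of experiment 2 it was 1.31% to 1.43% in untagged, 0.985% to 1.09% in tagged, 1.00% to 1.13% in Trim71KO and 1.05% to 1.18% in Ago2KO cells. In both experiments the untagged IP libraries lay above every tagged, Trim71KO and Ago2KO IP library.

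Levels between genes were compared per kilobase of the deposited gene length, over all input libraries of an experiment. Hnrnpab, which binds AU-rich and other single-stranded sequences, ranked first with a median of 338.8 CPM per kilobase in experiment 1 (275 to 432) and 330.6 in experiment 2 (311 to 379). Hnrnpa1, which represses splice sites and shuttles to the cytoplasm, had medians of 333 (312 to 453) and 321 (308 to 393). Their ranges overlapped in both experiments, so their order was not resolved. Hnrnpa3 followed with 191 and 205, then Hnrnpf with 169 and 179. Srsf2, at 153 and 144, was the SR mRNA with the highest median in both experiments. At the other end Hnrnpll, Hnrnpr and Srsf12 had medians of 7.72, 3.85 and 0.41 in experiment 1 and 9.0, 4.85 and 0.54 in experiment 2. Of the 30 neighbouring pairs in this order, 25 overlapped in experiment 1 and 23 in experiment 2. Srsf12 rested on 9 to 51 counts per input library in experiment 1 and 12 to 61 in experiment 2.

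Tag-specific enrichment asks which mRNAs the beads recover because of the tag. It is the IP to input ratio of tagged cells over that of untagged cells, on the log2 scale, called at an adjusted p under 0.05 over all genes (edgeR). In experiment 1 this ratio fell for most SR and hnRNP mRNAs: 26 of 31 fell, 2 rose and 3 were not called. Of all genes, 56.9% were called (28.1% higher, 28.8% lower). A fall can come from less RNA on tagged beads, from more RNA in tagged input, or from both. The median change was -0.86 over the members and -0.10 over all genes. In experiment 2, 14 fell, 1 rose and 16 were not called, while 27.7% of all genes were called (18.9% higher, 8.77% lower), with medians of -0.21 and -0.03. All 14 that fell in experiment 2 had also fallen in experiment 1. How many of all genes were called with the same sign in both experiments was not counted, so no background share stands beside these 14. With library size alone in place of TMM, experiment 2 gave 26 lower and 1 higher, and the median of all genes moved to -0.24.

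**Figure D1:**
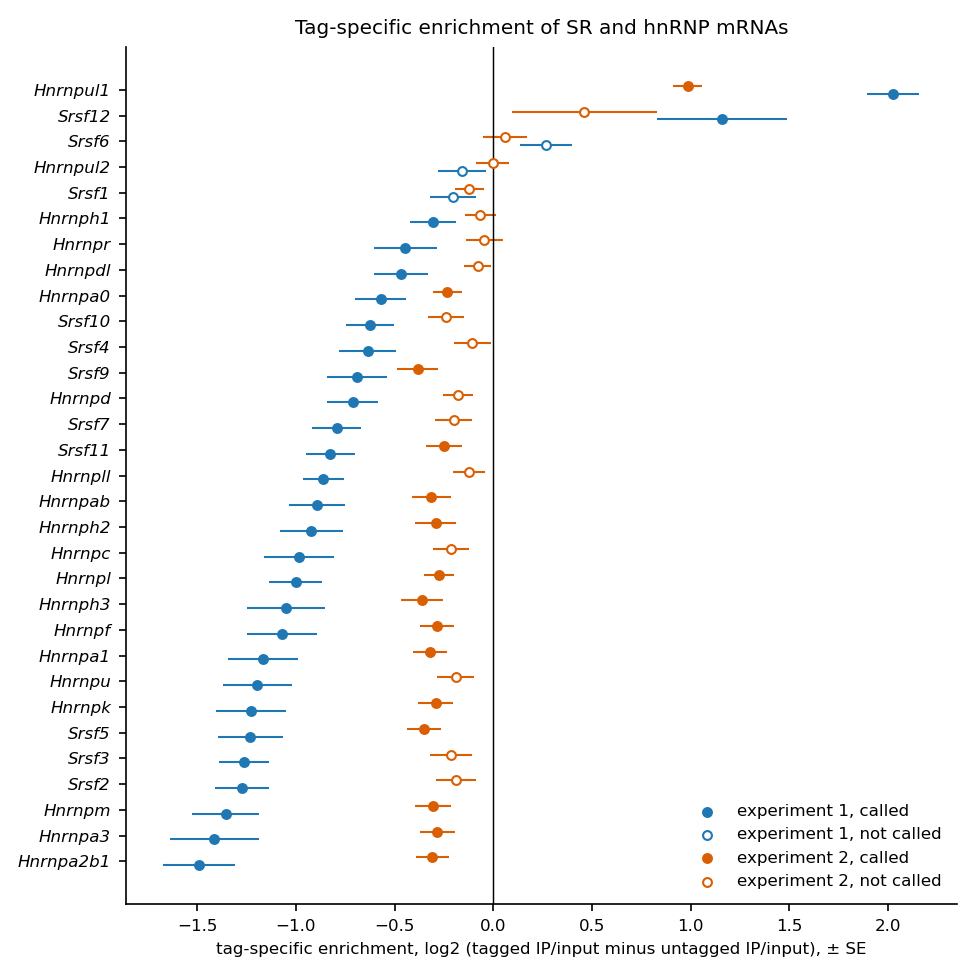
Tag-specific enrichment on the log2 scale (x axis) for each of the 31 genes (y axis), with bars of 1 SE from edgeR, filled where called and open where not. Hnrnpul1 lies furthest right in both experiments, at 2.03 and 0.98, and the 14 genes depleted in both lie further from 0 in experiment 1 than in experiment 2.

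Hnrnpul1 was the 1 Hnrnp mRNA that rose, and it did so in both experiments. It encodes an hnRNP U-like protein that acts in mRNA processing and the DNA damage response, and lies on chromosome 7 from 25721161 to 25756268 (GRCm38.p6, RefSeq). In experiment 1 its IP level was 242, 227 and 241 CPM in the untagged libraries and 845, 792 and 910.4 in the tagged libraries. Its input was 259, 254 and 261 CPM in untagged and 247, 203 and 232 in tagged cells. The tagged IP libraries all exceeded 3 times the untagged IP level, while the inputs lay between 203 and 261. The tag-specific log2 change was 2.03 (SE 0.13, edgeR adjusted p 3.83e-12). Its IP level in experiment 2 was 262, 274 and 279 CPM in untagged and 535, 498 and 468 in tagged libraries, over inputs of 283, 288 and 294 (untagged) and 273, 269 and 264 (tagged). The IP groups again did not overlap, and the log2 change was 0.98 (SE 0.075, edgeR adjusted p 4.22e-11). Both calls held in all 7 alternative settings and in all 12 fits that each left out a library.

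Srsf12, an SR protein described as a splicing repressor, was the other member that rose in experiment 1. Its IP level was 2.29, 1.76 and 2.15 CPM in untagged and 3.35, 3.46 and 3.72 in tagged libraries, with inputs of 1.89, 1.53 and 1.94 (untagged) and 1.29, 1.15 and 1.61 (tagged). The tagged IP libraries held 44, 45 and 48 counts, so counting error is large here. The log2 change was 1.16 (SE 0.33, edgeR adjusted p 0.0041), and in experiment 2 it was 0.46 (SE 0.37, edgeR adjusted p 0.383).

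The 14 mRNAs depleted in both experiments were 11 Hnrnp (Hnrnpa0, Hnrnpa1, Hnrnpa2b1, Hnrnpa3, Hnrnpab, Hnrnpf, Hnrnph2, Hnrnph3, Hnrnpk, Hnrnpl and Hnrnpm) and 3 Srsf (Srsf5, Srsf9 and Srsf11). The A/B-type hnRNPs are the core packaging proteins of nascent transcripts. Hnrnpa2b1, which also marks RNAs for transport, had the largest fall in experiment 1. Its IP level there was 855, 869 and 829 CPM in untagged and 335, 418 and 377 in tagged libraries. Its input was 609, 649 and 673 in untagged and 759.9, 892 and 745 in tagged cells. Every tagged input library lay above every untagged one, though this input difference was not called, and the mRNA was lower on tagged beads. The log2 change was -1.49 (SE 0.18, edgeR adjusted p 2.67e-07). Its IP level in experiment 2 was 809.9, 820.2 and 809 CPM in untagged and 649, 678 and 647 in tagged libraries, over inputs of 759, 763 and 821 (untagged) and 789, 784 and 775 (tagged). The IP groups did not overlap, and the log2 change was -0.31 (SE 0.081, edgeR adjusted p 0.005).

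Its close relative Hnrnpa3 had IP levels of 1138, 1157 and 1184 CPM in untagged and 453, 577 and 516 in tagged libraries of experiment 1, over inputs of 940.3, 1033 and 1051 (untagged) and 1052, 1388 and 1134 (tagged). In experiment 2 the IP levels were 1075, 1109 and 1169 (untagged) and 910.1, 922 and 871 (tagged), over inputs of 1112, 1093 and 1127 (untagged) and 1075, 1103 and 1091 (tagged). The log2 changes were -1.41 (SE 0.22) and -0.28 (SE 0.09), and the IP groups did not overlap in either experiment. Hnrnpa1 had IP levels of 1062, 1059 and 1074 CPM in untagged and 523, 629.9 and 531 in tagged libraries of experiment 1, over inputs of 1017, 1049 and 1075 (untagged) and 1145, 1427 and 1141 (tagged). Experiment 2 gave IP levels of 932, 940.0 and 997 (untagged) and 736, 796 and 795 (tagged), over inputs of 994, 971 and 973 (untagged) and 974, 1009 and 993 (tagged). Here too tagged IP lay below untagged IP throughout, with log2 changes of -1.17 (SE 0.18) and -0.32 (SE 0.085).

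Hnrnpab, first by median input level per kilobase, had IP levels of 936, 851 and 924 CPM in untagged and 583, 596 and 546 in tagged libraries of experiment 1, over inputs of 848, 970.0 and 942 (untagged) and 949, 1203 and 1114 (tagged). In experiment 2 the IP levels were 883, 898 and 961 (untagged) and 749, 745 and 726 (tagged), over inputs of 907, 864 and 935 (untagged) and 914, 925 and 883 (tagged). Its log2 changes were -0.89 (SE 0.14) and -0.31 (SE 0.10). Hnrnpa0, an A-type hnRNP that binds AU-rich elements, had IP levels of 318, 305 and 301 CPM in untagged and 227, 245 and 217 in tagged libraries of experiment 1, over inputs of 290.2, 315 and 298 (untagged) and 297, 385 and 317 (tagged). The IP levels of experiment 2 were 378, 389 and 412 (untagged) and 327, 347 and 336 (tagged), over inputs of 367, 379 and 396 (untagged) and 378, 397 and 374 (tagged). Its changes of -0.57 (SE 0.13) and -0.23 (SE 0.074) were the smallest falls among the 14 in each experiment.

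Hnrnpk and Hnrnpl bind C-rich and CA-rich RNA, and Hnrnpm binds GU-rich RNA. For Hnrnpm the IP levels in experiment 1 were 503, 491 and 466 CPM in untagged and 192, 246 and 224 in tagged libraries, over inputs of 419.6, 431 and 422 (untagged) and 453, 548 and 477 (tagged). The second experiment had IP levels of 337, 313 and 363 (untagged) and 283, 282 and 291 (tagged), over inputs of 323, 319 and 339 (untagged) and 340.4, 338 and 345 (tagged). The log2 changes were -1.35 (SE 0.17) and -0.30 (SE 0.091), with separate IP groups in both. Hnrnpk had IP levels of 839, 803 and 784 CPM in untagged and 327, 445 and 426 in tagged libraries of experiment 1, over inputs of 720.4, 718 and 734 (untagged) and 797, 881 and 834 (tagged). In experiment 2 they were 1085, 1067 and 1122 (untagged) and 909, 893 and 859 (tagged), over inputs of 940.4, 1022 and 1069 (untagged) and 989.9, 978 and 1047 (tagged). Its changes were -1.23 (SE 0.18) and -0.29 (SE 0.089), again with separate IP groups. Hnrnpl had IP levels of 541, 551 and 532 CPM in untagged and 229, 276 and 244 in tagged libraries of experiment 1, over inputs of 469, 463 and 471 (untagged) and 425, 437 and 436 (tagged). Experiment 2 gave IP levels of 643, 633 and 696 (untagged) and 509, 513 and 518 (tagged), over inputs of 592, 631 and 642 (untagged) and 570.5, 597 and 595 (tagged). Tagged IP was the lower group in both, with changes of -1.0 (SE 0.14) and -0.27 (SE 0.075).

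Hnrnpf, Hnrnph2 and Hnrnph3 belong to the F/H group, which binds G-rich RNA. Hnrnpf had IP levels of 562, 520.0 and 539.5 CPM in untagged and 237, 309.7 and 295 in tagged libraries of experiment 1, over inputs of 513, 529 and 516 (untagged) and 547, 574 and 572 (tagged). The IP levels of experiment 2 were 545, 549 and 588 (untagged) and 460.3, 473 and 487 (tagged), over inputs of 484, 527 and 565 (untagged) and 525, 543 and 552 (tagged). Its changes were -1.07 (SE 0.18) and -0.28 (SE 0.085), and the IP groups were separate. Hnrnph2 had IP levels of 69.4, 72.1 and 69.3 CPM in untagged and 37.8, 44.3 and 48.5 in tagged libraries of experiment 1, over inputs of 71.6, 69.6 and 73.0 (untagged) and 88.5, 85.3 and 77.5 (tagged). The second experiment had IP levels of 92.5, 101 and 94.6 (untagged) and 74.5, 76.3 and 82.6 (tagged), over inputs of 94.6, 98.9 and 104 (untagged) and 95.2, 99.1 and 101 (tagged). Its changes were -0.92 (SE 0.16) and -0.29 (SE 0.10), with tagged IP below untagged IP, and the call of experiment 2 was lost in 7 of 12 fits without a library. Hnrnph3 had IP levels of 56.5, 48.8 and 50.6 CPM in untagged and 24.2, 27.2 and 25.2 in tagged libraries of experiment 1, over inputs of 47.6, 50.1 and 50.4 (untagged) and 43.1, 59.6 and 47.8 (tagged). In experiment 2 they were 39.9, 42.6 and 43.6 (untagged) and 26.0, 25.1 and 26.3 (tagged), over inputs of 42.1, 37.7 and 42.2 (untagged) and 30.5, 31.5 and 34.1 (tagged). Its input was itself lower in tagged cells of experiment 2 (-0.34, SE 0.073, edgeR adjusted p 0.0118, a call lost in 4 of 6 fits without a library), and its enrichment changed by -1.05 (SE 0.20) and -0.36 (SE 0.11) on the log2 scale, with separate IP groups in both.

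Among the SR mRNAs, Srsf5 had IP levels of 433, 468 and 384 CPM in untagged and 219, 225 and 201 in tagged libraries of experiment 1, over inputs of 279, 298 and 302 (untagged) and 316, 385 and 336 (tagged). Experiment 2 gave IP levels of 353, 368 and 343 (untagged) and 236, 271 and 273 (tagged), over inputs of 363, 351 and 363 (untagged) and 336, 336 and 334 (tagged). Its changes were -1.23 (SE 0.16) and -0.35 (SE 0.085), and the IP groups were separate in both. Srsf9 had IP levels of 76.6, 70.7 and 73.7 CPM in untagged and 54.3, 50.8 and 55.2 in tagged libraries of experiment 1, over inputs of 74.4, 84.3 and 79.1 (untagged) and 80.7, 112 and 85.4 (tagged). The IP levels of experiment 2 were 91.0, 99.5 and 104 (untagged) and 71.0, 85.7 and 73.8 (tagged), over inputs of 88.8, 88.5 and 94.6 (untagged) and 95.3, 93.9 and 87.7 (tagged). Its change of -0.38 (SE 0.10) was the furthest below 0 of the 14 in experiment 2, beside -0.69 (SE 0.15) in experiment 1. Srsf11, an SR-related protein that binds U2AF, had IP levels of 191, 189 and 193 CPM in untagged and 112, 124 and 110.4 in tagged libraries of experiment 1, over inputs of 219, 214 and 217 (untagged) and 255, 227 and 213 (tagged). The second experiment had IP levels of 219.8, 242 and 228 (untagged) and 169.8, 186 and 204 (tagged), over inputs of 255, 247 and 259.6 (untagged) and 254, 237 and 244 (tagged). Tagged IP was again the lower group, with changes of -0.83 (SE 0.13) and -0.25 (SE 0.091), and the call of experiment 2 was lost with a replicate block by lysate and in 7 of 12 fits without a library.

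The 12 members that fell in experiment 1 and were not called in experiment 2 were Hnrnpc, Hnrnpd, Hnrnpdl, Hnrnph1, Hnrnpll, Hnrnpr, Hnrnpu, Srsf2, Srsf3, Srsf4, Srsf7 and Srsf10. In experiment 1 the mean tagged IP over untagged IP was 1.06-fold for Hnrnph1 and 0.97-fold for Hnrnpdl. Their inputs were 1.31-fold and 1.35-fold, so their falls came mostly with higher tagged input. Every tagged IP library lay below every untagged one for 25 of 31 members, and for 7005 of 18772 of all genes. Hnrnph1 (-0.30, SE 0.12, edgeR adjusted p 0.0288) lost its call in 3 of 7 other settings and in 10 of 12 fits without a library. Without tagged input replicate 2, Hnrnph1, Hnrnpdl and Hnrnpr were not called (-0.20, -0.31 and -0.35). In all, 25 of 28 calls of experiment 1 and 10 of 15 of experiment 2 held in every setting and every such fit. Whether the experiments differ was not tested. Srsf2 and Srsf3 had high levels on the untagged beads of experiment 1. Hnrnpdl and Srsf5 did too, with log2 ratios of IP to input of 0.64 and 0.55, while 7 members had a ratio below 0. Srsf2 IP stood at 909.6, 970.0 and 914 CPM in untagged libraries of experiment 1, above its input of 425, 443 and 415. In tagged cells its IP was 599.8, 499.7 and 461 over an input of 563, 628 and 539. Its log2 ratio of IP to input was therefore 1.12 in untagged and -0.15 in tagged cells, and the tag-specific change was -1.27 (SE 0.14, edgeR adjusted p 3.27e-08). For Srsf3 the ratios were 0.65 and -0.62, and the tag-specific change was -1.26 (SE 0.13, edgeR adjusted p 1.05e-08). In experiment 2 the untagged ratios of Srsf2 and Srsf3 were only 0.10 and 0.084, and their tag-specific changes were -0.19 (SE 0.10) and -0.21 (SE 0.10). Over all members the untagged ratio had a median of 0.10 in experiment 1 and 0.02 in experiment 2, against -0.028 and -0.0066 over all genes. These ratios depend on TMM scaling. The members' share of raw counts was lower in untagged IP than in untagged input, with means of 1.25% and 1.44% in experiment 1. In experiment 2 the means were 1.37% and 1.44%. The members not called in experiment 1 were Srsf1 (-0.20, SE 0.11, edgeR adjusted p 0.136), Srsf6 (0.27, SE 0.13, edgeR adjusted p 0.0898) and Hnrnpul2 (-0.16, SE 0.12, edgeR adjusted p 0.269).

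Other splicing genes were read from lists that hold no member. Beside their tag-specific counts, 28.8% of all genes were lower and 28.1% higher in experiment 1. In experiment 2 these shares were 8.77% and 18.9%. Of 26 core spliceosome genes, 25 fell and 0 rose in experiment 1, and 12 fell and 0 rose in experiment 2. Sf3b1, which encodes the branch-site subunit of U2, and Snrpd2, an Sm-ring protein gene, had the largest falls in experiment 1 (-1.60 and -1.31), and Sf3b6 and Snrpd3 had them in experiment 2 (-0.50 and -0.45), where Sf3b1 was not called (0.29). Of 17 SR-related proteins and kinases, 12 fell and 2 rose in experiment 1, and 3 fell and 4 rose in experiment 2. The kinase genes Srpk2 (1.05 and 0.44) and Clk4 (0.72 and 0.65), whose products phosphorylate SR proteins, rose in both. Pnn and Thrap3 fell most in experiment 1 (-1.45 and -1.11), and the splicing activator genes Tra2b and Tra2a fell most in experiment 2 (-0.38 and -0.27). Of 16 other nuclear RNA-binding proteins, 10 fell and 2 rose in experiment 1, and 5 fell and 2 rose in experiment 2. The CUG-binding protein gene Celf1 (1.78 and 1.03) and the neural splicing repressor gene Ptbp2 (1.41 and 0.81) rose in both. Rbmx and Khdrbs1 fell most in experiment 1 (-1.39 and -1.21), and the poly(C)-binding protein genes Pcbp2 and Pcbp1 in experiment 2 (-0.38 and -0.37).

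Trim71-dependent enrichment sets the IP to input ratio of Trim71KO cells against that of tagged cells. No member was called in either experiment by edgeR, where 3.74% (0.272% higher, 3.47% lower) and 1.49% (0.753% higher, 0.738% lower) of all genes were called. At an unadjusted p under 0.05 (edgeR) there were 1 and 7 of 31 members, beside 2810 of 18772 and 3011 of 19778 of all genes. DESeq2 called 0 members in both. The median change over members was 0.10 in experiment 1 and -0.09 in experiment 2, against -0.04 and 0.01 over all genes. Individual changes ran from -0.25 (Srsf5) to 0.32 (Hnrnpf) in experiment 1 and from -0.25 (Hnrnpab) to 0.32 (Srsf12) in experiment 2. Trim71KO IP replicate 1 decided the count in both experiments. Without it Hnrnpf, Hnrnpk and Hnrnpm rose in experiment 1 (0.55, 0.51 and 0.51), and Hnrnpa2b1, Hnrnpa3 and Hnrnpc fell in experiment 2 (-0.32, -0.37 and -0.32). Hnrnpul1 had IP levels of 820.5, 737 and 672 CPM in Trim71KO libraries of experiment 1 and 559.9, 577 and 580.2 in experiment 2, over inputs of 229, 221 and 227 and 257, 255 and 271. Its change was -0.18 (SE 0.13, edgeR adjusted p 0.567) in experiment 1 and 0.24 (SE 0.075, edgeR adjusted p 0.115) in experiment 2, and the last was called with library size alone (0.29).

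Ago2-dependent enrichment, the same contrast with Ago2KO cells, was measured in experiment 2. Hnrnpul1 was the 1 member called, and it fell, while 4.16% of all genes were called (0.384% higher, 3.77% lower). Its IP level was 459, 448 and 451 CPM in Ago2KO libraries against 535, 498 and 468 in tagged libraries. Its input was 346, 363 and 361 CPM in Ago2KO against 273, 269 and 264 in tagged cells. Every Ago2KO IP library lay below every tagged one and every Ago2KO input library lay above every tagged one. The enrichment changed by -0.55 (SE 0.075, edgeR adjusted p 2.55e-05) and the input RNA by 0.41 (SE 0.053, edgeR adjusted p 9.46e-06). Both calls held in all alternative settings planned and in all fits that each left out a library. Its log2 ratio of IP to input was 0.90 in tagged, 1.13 in Trim71KO, 0.34 in Ago2KO and -0.088 in untagged cells. The other members had a narrow range apart from Srsf12 (-0.81, SE 0.35, edgeR adjusted p 0.282), and the median over members was 0.0062, against 0.0026 over all genes.

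**Figure D2:**
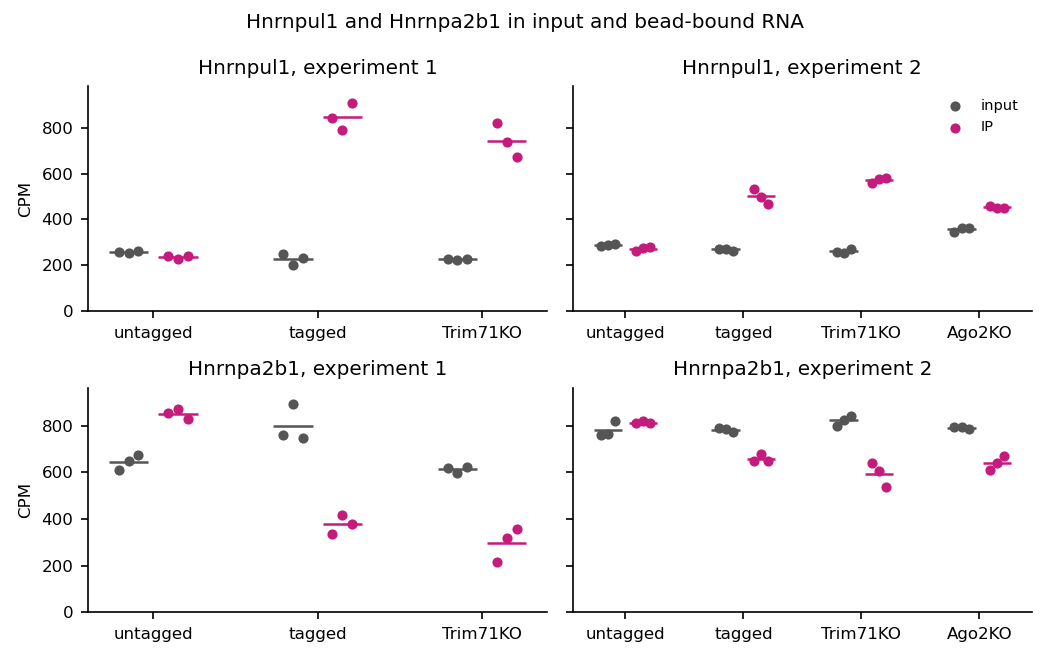
CPM of Hnrnpul1 (top) and Hnrnpa2b1 (bottom) in each input and IP library by genotype, with a line at each group mean, for experiment 1 (left) and experiment 2 (right). Hnrnpul1 IP lies above its input in all tagged genotypes and least so in Ago2KO, while Hnrnpa2b1 IP lies below its input in the same genotypes and above it or level with it in untagged cells.

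The knockouts were also compared with each other. For enrichment, 2 members were called where 11.8% of all genes were (8.94% higher, 2.86% lower). Hnrnpul1 was higher in Trim71KO than in Ago2KO (0.79, SE 0.075, edgeR adjusted p 5.33e-08). Hnrnpab was lower (-0.34, SE 0.10, edgeR adjusted p 0.0217), with IP levels of 653, 659 and 606 CPM in Trim71KO and 747, 827 and 898 in Ago2KO, over inputs of 872, 1055 and 878 (Trim71KO) and 966, 959 and 937 (Ago2KO). Srsf12 had a larger change that was not called (1.14, SE 0.38, edgeR adjusted p 0.0511). The count of called members was 1 with only the groups compared in the fit, 1 without Ago2KO IP replicate 3, 7 without Ago2KO IP replicate 1 and 5 without Trim71KO IP replicate 1.

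Input RNA shows the level of the mRNAs themselves. In bulk RNA fewer cells of a type and less RNA per cell cannot be told apart. In experiment 1, 17 members fell and 0 rose in Trim71KO against tagged input, where 34.0% of all genes were called (16.5% higher, 17.4% lower), and the median was -0.34 over members against -0.0078 over all genes. In experiment 2, 11 rose and 1 fell, where 27.2% of all genes were called (13.5% higher, 13.7% lower), and the median was 0.08 against -0.01. The same comparison thus gave opposite calls for 8 members: Srsf1, Srsf2, Srsf3, Srsf6, Srsf7, Hnrnpd, Hnrnph1 and Hnrnpu fell in experiment 1 and rose in experiment 2. How many of all genes had opposite calls was not counted, so no background share stands beside these 8 members. Of these, Srsf1, Srsf3 and Hnrnpd kept both calls in the other settings with tagged input as reference and in the fits without a library. In experiment 2 the calls of Srsf6, Srsf7, Hnrnph1 and Hnrnpu were lost with library size alone and in 4, 1, 3 and 4 of 6 fits without a library. In experiment 1, Srsf2, Hnrnpa0 and Hnrnpa2b1 were not called without tagged input replicate 2 (-0.26, -0.17 and -0.29), which left 14 calls. Whether the 2 experiments differ was not tested. Srsf12 input was 1.29, 1.15 and 1.61 CPM in tagged and 0.52, 0.70 and 0.80 in Trim71KO libraries of experiment 1, and 1.73, 1.65 and 1.79 and 1.13, 1.27 and 0.61 in experiment 2, with separate groups in both. It fell in both experiments (-0.98, SE 0.27, edgeR adjusted p 0.00781 and -0.78, SE 0.28, edgeR adjusted p 0.0417), and the call of experiment 2 was lost with only the groups compared in the fit and in 5 of 6 fits without a library (-0.98 to -0.52). Hnrnpa1, Hnrnpdl and Srsf5 rose in experiment 2 and were not called in experiment 1. Of these calls, 14 of 17 in experiment 1 and 7 of 12 in experiment 2 held in every other setting and every fit without a library.

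**Figure D3:**
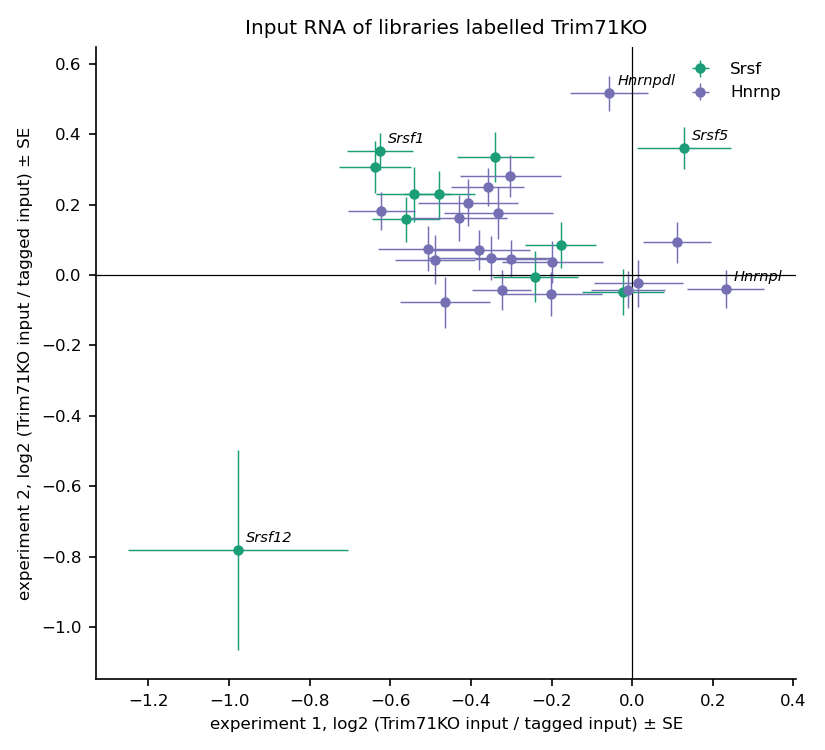
Log2 change of input RNA in Trim71KO against tagged cells in experiment 1 (x axis) and experiment 2 (y axis) for the 31 genes, with bars of 1 SE from edgeR. In experiment 1, 27 genes lie below 0, and in experiment 2, 22 lie above 0, with Srsf12 the lowest on both axes.

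The library values of Srsf1 and Srsf3 show which groups were high. Srsf1 is the founding SR protein, and its input was 390.1, 391 and 388 CPM in untagged, 545, 596 and 526 in tagged and 369, 353 and 359 in Trim71KO libraries in experiment 1. In experiment 2 it was 440.1, 445 and 458 in untagged, 467, 446 and 438 in tagged, 571, 588 and 564 in Trim71KO and 456, 454 and 440.2 in Ago2KO cells. The tagged group was thus the high one in experiment 1, and the Trim71KO group was the high one in experiment 2. Srsf3, the smallest SR protein, had 292, 296 and 298 CPM in untagged, 413, 499 and 412 in tagged and 289.8, 286 and 275 in Trim71KO libraries of experiment 1. In experiment 2 it had 333, 339 and 355 in untagged, 366, 346 and 326 in tagged, 444, 432 and 408 in Trim71KO and 379, 375 and 331 in Ago2KO cells. The same groups were high. The changes in Trim71KO against tagged were -0.63 (SE 0.081) and 0.35 (SE 0.052) for Srsf1, and -0.64 (SE 0.09) and 0.31 (SE 0.074) for Srsf3. Srsf2 changed by -0.34 (SE 0.10) and 0.33 (SE 0.072), and Hnrnph1, a G-rich RNA binder, by -0.62 (SE 0.082) and 0.18 (SE 0.055).

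The tagged cells of experiment 1 already differed from untagged cells. In their input 10 members rose and 0 fell, where 10.6% of all genes were called (5.69% higher, 4.87% lower), with Srsf3 (0.58, SE 0.09, edgeR adjusted p 0.000269), Srsf1 (0.51, SE 0.081, edgeR adjusted p 0.000324) and Srsf10 (0.43, SE 0.084, edgeR adjusted p 0.00236) changed most. Srsf10, which represses splicing when dephosphorylated, had 162, 159.8 and 175 CPM in untagged, 219, 237 and 214 in tagged and 151, 149 and 154 in Trim71KO input, so that the tagged libraries were the high ones. Without tagged input replicate 2 the count was 5, and Hnrnpc, Hnrnpd, Hnrnpdl, Srsf6 and Srsf7 were not called. This comparison and that of Trim71KO with tagged input share the tagged libraries. In experiment 2 the same comparison called 1 member, Hnrnph3, where 1.39% of all genes were called (0.809% higher, 0.581% lower). With untagged input as the reference, an alternative chosen after seeing the data, Trim71KO input of experiment 1 had 2 members higher and 2 lower, where 20.4% of all genes were called (11.0% higher, 9.37% lower). Hnrnpdl (0.37) and Srsf5 (0.37) rose and Hnrnph1 (-0.24) and Srsf12 (-1.37) fell, while Srsf1 and Srsf3 were not called. With that reference experiment 2 had 11 higher and 3 lower, where 29.1% of all genes were called (14.0% higher, 15.1% lower). Hnrnpdl, Srsf5 and Srsf12 were therefore called in 1 direction in both experiments against untagged cells. Hnrnph1 was also called in both, but in opposite directions (-0.24 in experiment 1 and 0.21 in experiment 2). How many of all genes were called in both with this reference was not counted.

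**Figure D4:**
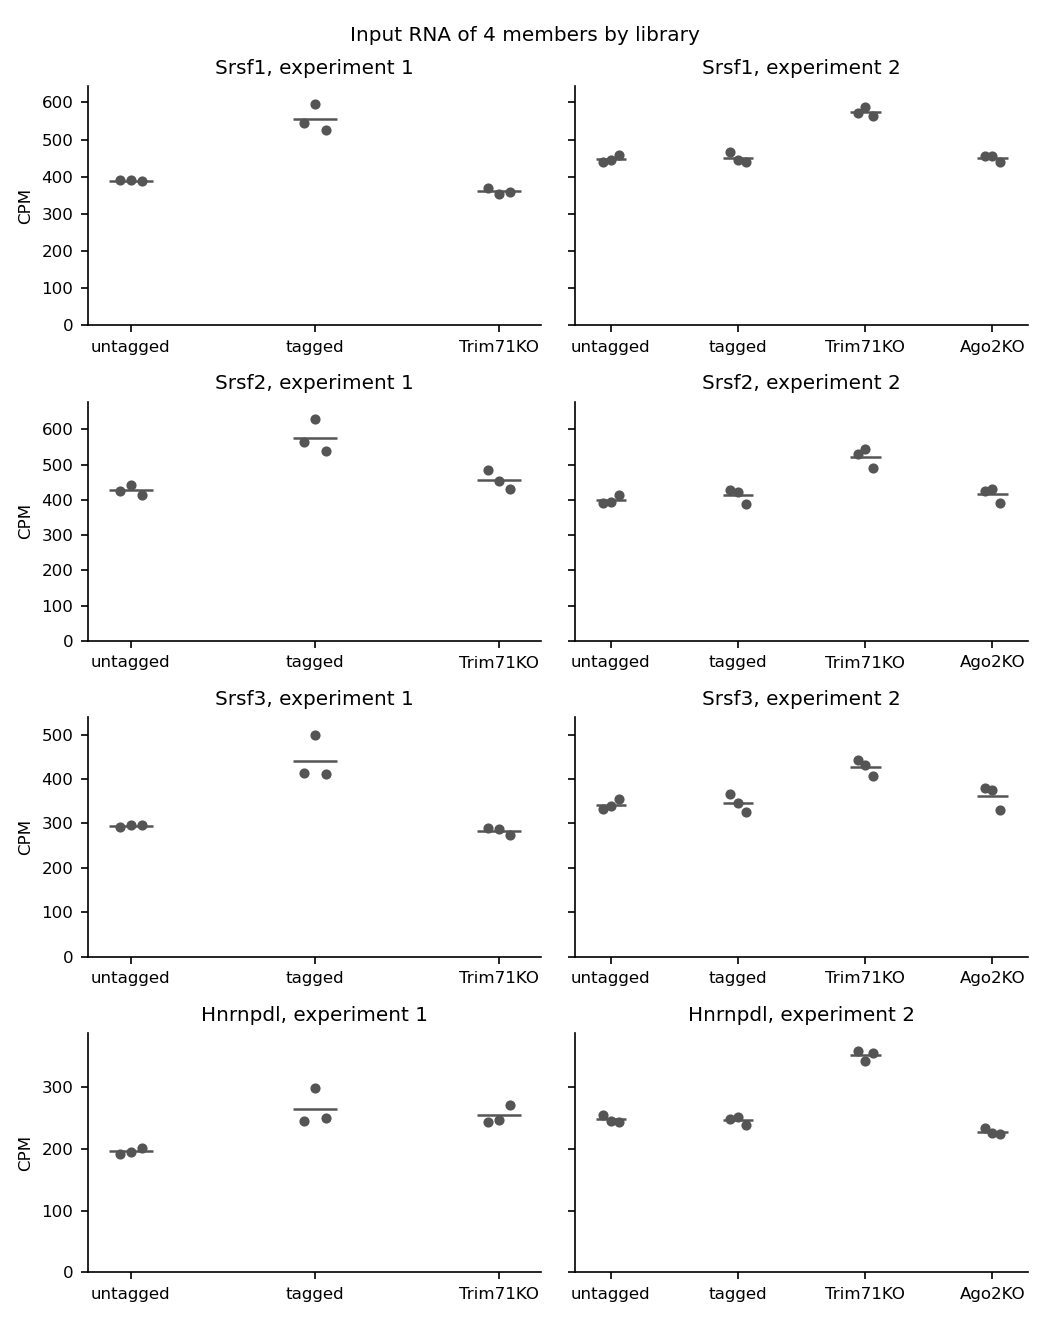
Input CPM of Srsf1, Srsf2, Srsf3 and Hnrnpdl in each library by genotype, with a line at each group mean, for experiment 1 (left) and experiment 2 (right). For the Srsf genes the tagged group is high in experiment 1 and overlaps untagged in experiment 2, where Trim71KO is the high group. Hnrnpdl is high in both tagged and Trim71KO libraries of experiment 1.

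Hnrnpdl, an hnRNP D-like protein that controls its own splicing, had the largest rise in experiment 2. Its input was 254, 245 and 244 CPM in untagged, 248, 252 and 239 in tagged, 358, 343 and 356 in Trim71KO and 234, 225 and 224 in Ago2KO cells. The Trim71KO group stood clear of the other three genotypes, and the change against tagged cells was 0.52 (SE 0.05, edgeR adjusted p 1.31e-08). In experiment 1 it had 192, 195 and 202 in untagged, 246, 298 and 249 in tagged and 244, 247 and 271 in Trim71KO cells. There tagged and Trim71KO overlapped and both lay above untagged. Srsf5 input in experiment 2 was 432, 412 and 448 CPM in Trim71KO against 336, 336 and 334 in tagged cells (0.36, SE 0.06, edgeR adjusted p 4.79e-05), again with no overlap.

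Markers of other cell types differed in level in libraries labelled Trim71KO. The 4 primitive endoderm markers listed in both experiments and Foxa2, listed in experiment 1, were all lower in Trim71KO than in tagged input. In experiment 1 their mean levels summed to 42.4 CPM for untagged, 42.3 for tagged and 7.28 for Trim71KO input. The sums in experiment 2 were 14.6 for untagged, 14.4 for tagged, 5.29 for Trim71KO and 7.81 for Ago2KO input. Of 4 fibroblast markers, Thy1 and Col1a1 had rows, and their sum was 23.9 CPM in tagged and 60.1 in Trim71KO libraries of experiment 1, and 34.9 and 50.6 in experiment 2. Most of the sum was Thy1 (29.9 CPM in tagged and 46.6 in Trim71KO input of experiment 2), while Col1a1 had 5.06 and 3.96 there. The part of these in the member levels was not tested.

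The other splicing genes were also read in Trim71KO against tagged input. Of all genes, 16.5% were higher and 17.4% lower in experiment 1, and 13.5% and 13.7% in experiment 2. The called shares of the core spliceosome and SR-related lists in experiment 2 were near that of all genes (27.2%). Of the 26 core spliceosome genes, 11 fell and 3 rose in experiment 1, led by Snrpd1 (-0.73) and Snrpe (-0.64) downwards and Prpf8 (0.67) and Snrnp200 (0.51) upwards, and 4 rose and 3 fell in experiment 2. Of the 17 SR-related genes, 6 fell and 2 rose in experiment 1, where Tra2b changed by -0.65 and Srrm2 by 0.58, and 4 rose and 0 fell in experiment 2. Of the 16 other RNA-binding protein genes, 8 fell and 0 rose in experiment 1, and 6 rose and 3 fell in experiment 2, where Rbmx had the largest rise (0.64).

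In Ago2KO against tagged input 2 of 31 members rose, Hnrnpul1 and Hnrnph1 (0.20, SE 0.055, edgeR adjusted p 0.025), and 0 fell, a share near that of all genes, where 6.96% of all genes were called (4.38% higher, 2.57% lower). Hnrnph1 stood at 403, 404 and 403 CPM in Ago2KO and 369.6, 339 and 344 in tagged input. The Hnrnph1 call was lost with library size alone and in 5 of 6 fits without a library. With untagged input as the reference, again chosen after seeing the data, Hnrnpul1 (0.31) and Hnrnph1 (0.23) rose and Hnrnph3 (-0.49) and Srsf5 (-0.18) fell, where 15.1% of all genes were called (8.23% higher, 6.91% lower). Against Ago2KO input, Trim71KO input had 9 members higher and 2 lower, where 28.4% of all genes were called (13.2% higher, 15.1% lower). Hnrnpdl (0.63, SE 0.05, edgeR adjusted p 4.83e-10), Srsf5 (0.44, SE 0.06, edgeR adjusted p 3.07e-06) and Srsf1 (0.35, SE 0.052, edgeR adjusted p 1.01e-05) were highest, and Srsf12 (-1.21, SE 0.27, edgeR adjusted p 0.0014) and Hnrnpul1 (-0.45, SE 0.053, edgeR adjusted p 3.35e-07) were lower. Srsf12 input in Ago2KO was 1.73, 2.22 and 2.97 CPM and Srsf5 input 312, 327 and 313, and neither group overlapped Trim71KO. This comparison and that with tagged cells share the Trim71KO libraries.

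Promoter sequence of 29 of the 31 genes was matched by symbol in RefSeq (GRCm38.p6). In the 250 bases before the annotated start, on either strand, the Sp1-type box GGGCGG was found in 23 of 29 members (79.3%) and in 32.9% of all 27025 promoters. The CCAAT box was found in 15 (51.7%, against 34.5%), TATAAA in 3 (10.3%, against 13%) and the E-box CACGTG in 2 (6.9%, against 6.05%). These are matches of letters, not binding sites. The first listed promoter of each symbol was used, which need not start at the outer end of the gene. The members all passed the count filter, while the 27025 promoters were not limited to genes expressed here, so the shares are not like for like. Of the 8 members that fell in experiment 1 and rose in experiment 2 in Trim71KO input, Srsf3 and Srsf6 are shown. For these alone the promoter start matched was the outer end of the gene. The 120 bases before each start are given 5′ to 3′ on the plus strand, with the motifs found in capitals, namely CCAAT (here as its complement) and TATAAA for Srsf3 and GGGCGG (here as its complement) for Srsf6.
Srsf3, chr17:29032540-29032659: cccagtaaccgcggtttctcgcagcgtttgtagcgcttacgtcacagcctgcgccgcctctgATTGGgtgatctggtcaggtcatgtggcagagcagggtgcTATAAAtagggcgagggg
Srsf6, chr2:162931388-162931507: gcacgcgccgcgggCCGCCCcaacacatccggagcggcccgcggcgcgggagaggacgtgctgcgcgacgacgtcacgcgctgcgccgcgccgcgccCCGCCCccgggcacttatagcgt

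Some members share sequence or position with other counted genes, and how reads there were assigned is not given in the sources used here. The loci of 8 members overlap another counted gene, namely Hnrnpab, Hnrnpdl, Hnrnph3, Hnrnpk, Hnrnpu, Srsf2, Srsf4 and Srsf9. The pseudogene row Srsf3-ps, like Srsf3, was higher in tagged input: it had 14.6, 17.1 and 14.1 CPM in untagged and 29.4, 43.8 and 30.5 in tagged cells of experiment 1. Values of Srsf3 and Hnrnpa1, which have such copies, and of the overlapping genes are uncertain to that extent.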

How the data were processed

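The tables hold raw read counts per gene, one column per library, which the authors deposited beside RPKM values and gene lengths, per the file headers. The submitters' processing notes name STAR 2.7.3a, bcl2fastq 2.20 and GRCm38/mm10 with no role. The annotation, counting rule and strand setting are not given in the sources used here. RPKM values, as deposited by the authors, were not used for tests.

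Counts of each experiment were fitted over all its groups with edgeR 4.0.16 (R 4.3.3, limma 3.58.1): filterByExpr with a count minimum of 10, TMM scaling, glmQLFit and glmQLFTest, with Benjamini-Hochberg adjustment over all genes tested and calls at 0.05. SE was taken as |log2 change| over the root of the F statistic. CPM uses the TMM-adjusted library size. Enrichment contrasts subtract IP to input ratios between genotypes. On simulated counts with 200 genes changed 2-fold in tag-specific enrichment, 80.5% were recovered among 18216 genes tested in experiment 1 and 90% among 19308 in experiment 2. Of the genes called, 5.29% and 4.76% were false. The changed genes were taken from those with higher counts and moved either way. Recovery of smaller changes, or with as many genes changed as in the data, was not tested. Depth gives the error of counting only. Replicate pairs differed by more than counting noise (chi-square per gene 2.872 to 64.12 over 42 pairs). The libraries are triplicate dishes, so p-values measure the spread between dishes.

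Members and gene lists were chosen with earlier results of these data known. Values in every library are given for members called with the same sign in both experiments, for up to 3 members each way with the largest called change per comparison, and for the most and least abundant. Lists are given by counts with their largest called changes, and the nonsense-mediated decay list is not reported here. Alternatives were RLE size factors, library size alone, no filter, a replicate block, DESeq2 1.42.0, only the groups compared and each library left out. Promoters are RefSeq sequences matched by symbol.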

Additional observations from a re-analysis of the deposited data

How the results depend on the processing

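Of 5766 values of single members in other settings (372 results), 5565 kept their side of the threshold, 102 gained a call and 99 lost one. Among values called in the main or the other setting, 0 changed sign. Changes of sign in values called in neither were not counted. With library size alone, tag-specific enrichment of experiment 2 called 27 members (1 higher, 26 lower, with 36.5% of all called genes higher), Trim71-dependent enrichment of experiment 2 called 1 and Ago2KO input called 1. For Trim71KO against Ago2KO enrichment the count was 4 with a replicate block within fraction and 1 with only the groups compared. The cause was not tested. With untagged input as reference, chosen after seeing the data, Ago2KO input called 4 and Trim71KO input of experiment 1 called 4, where Hnrnpdl (0.37, not called with the main reference) and Srsf2 (0.093, not called here) had the opposite sign. Hnrnpk (0.0089) and Hnrnpul2 (-0.030), called with neither reference, also changed sign. Leaving out each library in turn gave 26 to 28 called members in tag-specific enrichment of experiment 1 and 12 to 17 in experiment 2, 0 to 3 in Trim71-dependent enrichment of experiment 1 and 0 to 3 in experiment 2, 1 to 1 in Ago2-dependent enrichment and 1 to 7 in Trim71KO against Ago2KO enrichment. For input RNA it gave 5 to 13 in tagged against untagged of experiment 1 and 0 to 1 in experiment 2, 14 to 21 in Trim71KO against tagged of experiment 1 and 8 to 11 in experiment 2, 1 to 2 in Ago2KO against tagged and 8 to 12 in Trim71KO against Ago2KO. Correlations did not show a pairing by replicate number: 0 of 43 group pairs had every same-number correlation over 0.1 (range -0.121 to 0.261). With so few libraries per group this cannot show that input and IP of the same number came from separate lysates. With the replicate block, tag-specific enrichment of experiment 1 called 28 members within fraction and 27 by lysate, against 28 without it, and that of experiment 2 called 16 and 15, against 15. Srsf12 is limited by depth, at 9 to 51 counts per input library in experiment 1.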

Other observations

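Among splicing-related genes outside the SR and hnRNP families, Celf1 (-0.53, SE 0.085, edgeR adjusted p 0.000239) and Srpk2 (-0.29, SE 0.082, edgeR adjusted p 0.0381) fell in Ago2-dependent enrichment. Both had risen in tag-specific enrichment in both experiments, as had Hnrnpul1. These comparisons share the tagged libraries. Ptbp2, also enriched with the tag, was higher in Ago2KO input (0.58, SE 0.081, edgeR adjusted p 2.78e-05), and its Ago2-dependent change was -0.17 (SE 0.11, edgeR adjusted p 0.603).

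In Trim71KO against Ago2KO enrichment, 5 of 26 core spliceosome genes were lower and 0 higher. Of all genes, 2.86% were lower and 8.94% higher. Snrnp70 (-0.42, SE 0.09, edgeR adjusted p 0.00196), which encodes the U1 protein that many SR proteins contact, and Snrpg (-0.41, SE 0.12, edgeR adjusted p 0.0221) fell most. Celf1 (0.82, SE 0.085, edgeR adjusted p 2.19e-07) and Ptbp2 (0.46, SE 0.11, edgeR adjusted p 0.00621) were higher. In tagged against untagged input of experiment 1, 4 of the 16 other RNA-binding protein genes rose and 1 fell. Of all genes, 5.69% were higher and 4.87% lower. Ptbp3 (0.56, SE 0.13, edgeR adjusted p 0.00706) and Matr3 (0.48, SE 0.086, edgeR adjusted p 0.00114) were highest.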
